A study of Homo sapiens with 24 samples.

Results

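Cancer-testis genes of the X chromosome were followed in RNA-seq of HEK293T cells, a human embryonic kidney cell line that carries the SV40 large T antigen. The 6 genes PAGE5, MAGEA12, CSAG1, MAGEA2, MAGEA3 and MAGEA6 were chosen by name out of 58884 genes listed, because their level was higher in KO than in WT cells in the first of 2 expression tables. The first table held untreated wild-type (WT) cells and untreated SETD2 knockout (KO) cells, with 2 libraries each. The second held untreated KO cells and KO cells rescued by transfection with full-length SETD2 (SETD2 FL) or with SETD2 C, a construct without the N-terminal part of the protein, again with 2 libraries each. All 10 libraries came from the same cell line, and all rescued cells carried the SETD2 deletion. By the methods of the study, both alleles of SETD2 were disrupted in KO cells, the constructs were driven by a CMV promoter, and RNA was taken 72 hours after transfection. There was no library of KO cells transfected with an empty vector among those analysed, so transfection and the construct cannot be told apart in the second table. Levels are given as TPM, a length-corrected share of all transcripts with the same total in each library. The name given to the group, raised in KO, held by size for 3 of the 6 genes and only weakly for the other 3, as the values show.

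Cancer-testis antigens are proteins whose genes are active in germ cells of the testis and silent in most somatic tissues, and which are switched on in many tumours. Many lie on the X chromosome in families of near-identical copies, and methylation of CpG dinucleotides in their promoters is a known means of keeping them silent. MAGE-A proteins share the MAGE homology domain, by which they bind RING-type ubiquitin ligases. MAGEA3 and MAGEA6 bind the ligase TRIM28 and direct it to AMPK, the cell's energy sensor. CSAG1 belongs to a family first described in chondrosarcoma, and PAGE5 to the PAGE family of short acidic proteins. SETD2 is the methyltransferase that places the third methyl group on lysine 36 of histone H3 in transcribed genes.

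Of the 6 genes, 5 lay together on the long arm of the X chromosome and PAGE5 stood apart on the short arm. By GENCODE 44 on GRCh38, the build of the deposited tables, MAGEA3 is at chrX:152698767-152702347 on the plus strand, CSAG1 at chrX:152727484-152733735 on the minus strand, and MAGEA12 at chrX:152733757-152737669 on the plus strand. MAGEA2 follows at chrX:152749863-152753884 and MAGEA6 at chrX:152766136-152769716, both on the minus strand. PAGE5, at chrX:55220346-55224108 on the plus strand, starts 97478421 bp from MAGEA3. CSAG1 and MAGEA12 lie head to head, with annotated starts 22 bp apart. The same arrangement is found at MAGEA2 and CSAG3 and at CSAG2 and MAGEA2B, each pair with starts 37 bp apart.

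The promoters are shown because the members differ in level while the start regions of the MAGE-A members are close copies of each other. RefSeq windows on GRCh38.p14 were found for 8 of the 9 members and copies looked up, each with 250 bases before and 50 bases after the start, printed 5′ to 3′ with each CpG in capitals. The MAGEA12 window is chrX:152733507-152733806 on the plus strand, and 135 of its 300 bases are also in the window of CSAG1 on the other strand. The MAGEA2 window is chrX:152753793-152754092 on the minus strand and is identical to that of MAGEA2B. The MAGEA3 window is chrX:152698544-152698843 on the plus strand and is identical to that of MAGEA6, at chrX:152769640-152769939 on the minus strand. The PAGE5 window is chrX:55220096-55220395 on the plus strand.
MAGEA12: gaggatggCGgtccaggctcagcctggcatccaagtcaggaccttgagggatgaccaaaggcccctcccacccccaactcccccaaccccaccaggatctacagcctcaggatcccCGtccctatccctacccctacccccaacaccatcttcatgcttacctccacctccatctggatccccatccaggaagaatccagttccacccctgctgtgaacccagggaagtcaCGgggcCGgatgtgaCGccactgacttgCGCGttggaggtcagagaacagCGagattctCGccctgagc
MAGEA2: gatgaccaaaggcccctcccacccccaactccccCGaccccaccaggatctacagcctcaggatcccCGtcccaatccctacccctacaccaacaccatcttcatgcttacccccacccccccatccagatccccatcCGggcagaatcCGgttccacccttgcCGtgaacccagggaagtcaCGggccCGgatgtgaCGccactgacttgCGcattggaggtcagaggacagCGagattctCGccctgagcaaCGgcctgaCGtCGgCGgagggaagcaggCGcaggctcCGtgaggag
MAGEA3: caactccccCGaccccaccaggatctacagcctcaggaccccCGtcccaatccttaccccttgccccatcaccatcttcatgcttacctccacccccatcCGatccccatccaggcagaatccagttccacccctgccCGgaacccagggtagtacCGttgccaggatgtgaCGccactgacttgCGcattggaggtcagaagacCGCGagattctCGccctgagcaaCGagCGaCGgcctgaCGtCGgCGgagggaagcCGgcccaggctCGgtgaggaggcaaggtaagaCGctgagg
PAGE5: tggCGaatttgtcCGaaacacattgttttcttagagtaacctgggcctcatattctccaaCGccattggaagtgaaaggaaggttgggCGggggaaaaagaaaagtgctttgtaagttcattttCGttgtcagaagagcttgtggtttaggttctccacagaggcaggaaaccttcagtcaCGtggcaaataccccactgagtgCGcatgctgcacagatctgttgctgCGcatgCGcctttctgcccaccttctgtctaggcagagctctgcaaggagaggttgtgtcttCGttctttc

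Over the bases that aligned, the MAGEA12 window was 94.0% identical to that of MAGEA2 and 90.2% identical to that of MAGEA3. The MAGEA2 and MAGEA3 windows were 92.3% identical. PAGE5 shared no run over 9 bases with any of them. The MAGEA12 window holds 9 CpG, that of PAGE5 10, that of CSAG1 16, that of MAGEA2 17, and those of MAGEA3 and MAGEA6 19 each. The 3 members with the large difference between KO and WT libraries had the fewest CpG, though CSAG1 was only just below MAGEA2. This is a description of 6 genes, and a link of CpG with level was not tested. The windows also cover partly different stretches of the copied sequence, since those of MAGEA12 and MAGEA2 aligned over 250 of 300 bases. Their CpG counts are therefore not those of the same bases. Of all 35116 RefSeq windows, 58.4% held at least as many CpG as that of MAGEA12 and 42.9% at least as many as that of MAGEA3, with a median of 14. The core of the site bound by ETS factors, CCGGAA or CCGGAT on either strand, with overlapping matches of both strands counted apart, was present once in the MAGEA12, CSAG1, MAGEA3 and MAGEA6 windows, 3 times in that of MAGEA2, and not in that of PAGE5. At least 1 such match was present in 22.1% of all windows.

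The coding sequences of MAGEA2 and MAGEA2B were identical over all 942 bases, and those of MAGEA3 and MAGEA6 98.1% identical. Since reads were 75 bases long, each stretch of 75 bases in the reference transcript was looked up in the transcripts of all other genes. All 1812 stretches of MAGEA2 were also found in MAGEA2B, and 44.3% of MAGEA3 in MAGEA6. For MAGEA12 the share was 0.2%, for PAGE5 4.8% and for CSAG1 6.8%. Reads of MAGEA12, CSAG1 and PAGE5 could therefore be placed nearly throughout. The level of MAGEA2 alone is uncertain and is given below with its copy.

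As a check of the labels, SETD2 itself was read in every library. SETD2 was at 12.62 and 14.82 TPM in the WT libraries and at 16.19 and 16.31 TPM in the libraries labelled KO of the first table. It was therefore no lower in KO than in WT, and directions between KO and WT rest on the labels. SETD2 in the second table was at 11.99 and 12.15 TPM in KO, at 439.26 and 421.96 TPM with SETD2 FL, and at 1329.05 and 1264.32 TPM with SETD2 C. The tables give no read depth. Genes above 0 per library numbered 24744 to 25480 in the first table and 24306 to 27104 in the second. The SETD2 C libraries had 27104 and 26139. HEK293T markers fixed for the purpose were measured in all libraries. VIM was at 444 to 926 TPM, NEFM at 111 to 341 TPM and LIN28B at 24.1 to 43.8 TPM. NES, at 1.23 to 4.31 TPM, and PAX2, at 0.99 to 2.21 TPM, were low. Of 10 markers of testis germ cells, the sum was 0.97 to 1.71 TPM, PRM1, PRM2 and TNP1 were at 0 in all 10 libraries and ACR was the highest at 0.68 to 1.38 TPM. Of 5 markers of testis soma, 2 were tested between KO and WT. AMH was called lower in KO by limma (-1.24 on the log2 scale, adjusted p 0.0123), beside 1.02% of all genes called lower. SOX9 was at 4.38 and 5.32 TPM in WT and at 6.90 and 6.37 TPM in KO (0.30, adjusted p 0.134 by limma). The 5 summed to 17.79 and 18.21 TPM in WT and 13.95 and 11.82 TPM in KO. Of 5 HEK293T markers NEFM and NES were called higher with SETD2 C than in KO, beside 3.75% of all genes called higher. The part of these markers in the results was not tested. No source states that replicates were separate cultures, so p-values measure only the spread between these libraries, which may be technical. In bulk RNA, more cells with a transcript and more transcript per cell cannot be told apart.

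The first comparison asks what differed between WT and KO cells. PAGE5 was at 0.06 and 0 TPM in WT and at 10.35 and 11.75 TPM in the libraries labelled KO. MAGEA12 was at 1.60 and 2.15 TPM in WT and at 45.42 and 46.13 TPM in KO. CSAG1, its head-to-head neighbour, was at 3.62 and 2.74 TPM in WT and at 67.40 and 64.33 TPM in KO. These 3 genes were silent or low in both WT libraries and well expressed in both KO libraries, where MAGEA12 and CSAG1 lay within the 26.02 to 72.68 TPM of the other 3 members and PAGE5 below it. The mean TPM in KO was 24.4 times that in WT for MAGEA12 and 20.7 times for CSAG1. For PAGE5 no ratio is given, because its WT level was next to 0. After scaling and with 0.5 added to each TPM, the log2 difference KO minus WT was 4.37 for PAGE5 (SE 0.15), 4.18 for MAGEA12 (SE 0.10) and 4.06 for CSAG1 (SE 0.17). The added value sets much of the difference of PAGE5, which was 6.36 with 0.1 added and 3.48 with 1 added. These were the 3 most positive differences of 14746 genes tested. They chose the members, so no test of them is given. All 6 members passed the filter of 0.5 TPM in 2 libraries, PAGE5 through the KO libraries alone. Over all genes, 50 or 0.339% were called higher and 150 or 1.02% lower by limma, where a call means a change of 2-fold or more with an adjusted p no larger than 0.05.

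**Figure D1:**
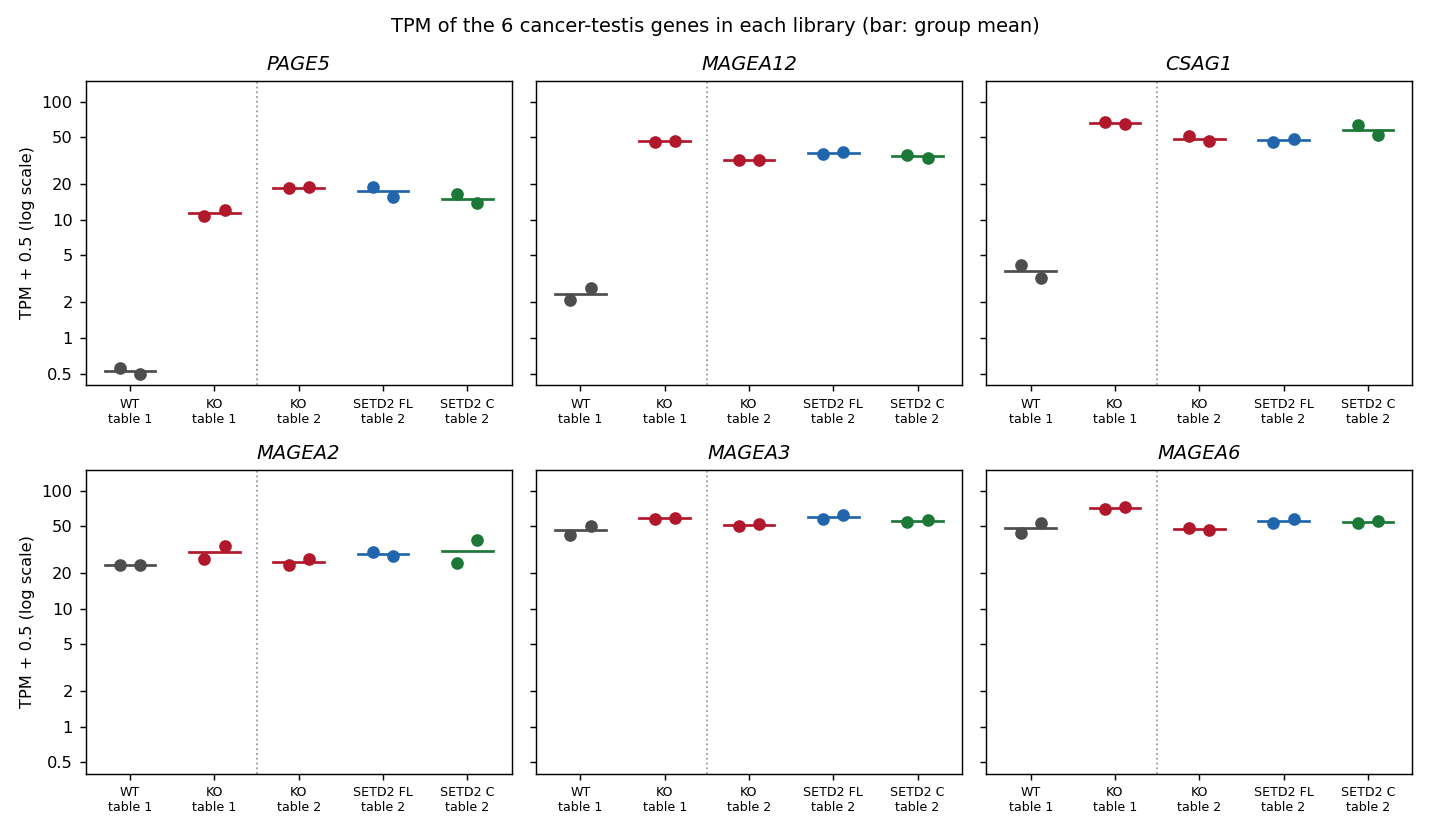
TPM + 0.5 on a log axis for the 6 genes in each library, 2 points a group with the group mean as a bar, with the first table left of the dotted line and the second right of it. PAGE5, MAGEA12 and CSAG1 are far lower in the 2 WT libraries than in the other 8, while MAGEA2, MAGEA3 and MAGEA6 stay within a narrow band in all 10.

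The other 3 members were already well above 0 in WT cells and differed little. MAGEA6 was at 43.49 and 52.53 TPM in WT and at 69.18 and 72.68 TPM in KO. MAGEA3 was at 41.44 and 49.98 TPM in WT and at 57.10 and 58.50 TPM in KO. MAGEA2 was at 23.00 and 23.01 TPM in WT and at 26.02 and 33.35 TPM in KO. The ratio of mean TPM was only 1.48 for MAGEA6, 1.29 for MAGEA2 and 1.26 for MAGEA3. On the log2 scale after scaling the differences were 0.43 (SE 0.07), 0.22 (SE 0.14) and 0.21 (SE 0.07). MAGEA6 ranked 450th, MAGEA2 2089th and MAGEA3 2248th of 14746 genes by this difference, against a median of -0.01 over all genes. Scaling bears on differences of this size, since the difference of MAGEA3 was 0.34 without it. Summed over the 6 genes, the level was 113.2 and 130.4 TPM in WT and 275.5 and 286.7 TPM in KO.

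Counting near-identical copies together set MAGEA2 further apart from the others. MAGEA2B was at 37.31 and 58.11 TPM in WT and at 52.25 and 49.68 TPM in KO of the first table. Summed with MAGEA2, the pair was at 60.3 and 81.1 TPM in WT and at 78.27 and 83.03 TPM in KO, so that the groups overlapped, with a log2 difference of 0.07 (SE 0.09). MAGEA3 and MAGEA6 together were at 84.9 and 102.5 TPM in WT and at 126.3 and 131.2 TPM in KO, with a log2 difference of 0.33 (SE 0.07). The share of the MAGEA3 and MAGEA6 sum that went to MAGEA3 was steady, at 44.6% to 52.6% over the 10 libraries. That given to MAGEA2 was not: it was 28.4% to 40.2% in the first table and 55.7% to 95.5% in the second. The 2 SETD2 C libraries marked both ends of the second range, with sums of 42.7 and 39.1 TPM.

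**Figure D2:**
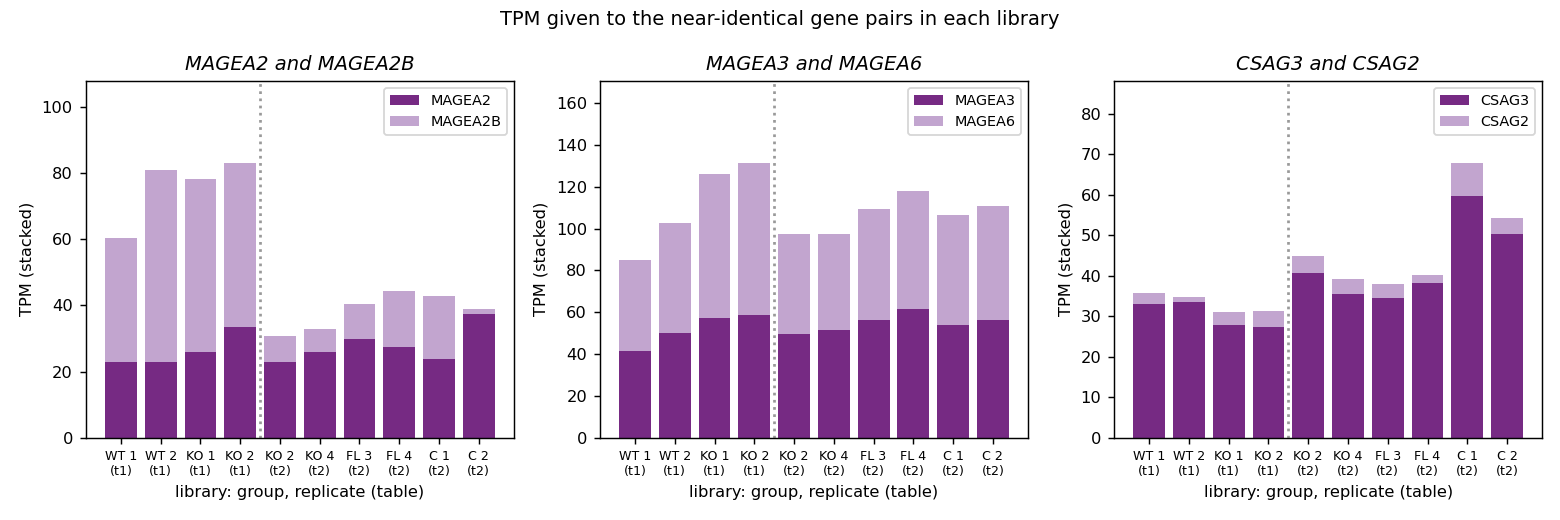
Stacked TPM of MAGEA2 with MAGEA2B, of MAGEA3 with MAGEA6 and of CSAG3 with CSAG2 in each of the 10 libraries, labelled by group and replicate, with t1 and t2 for the table. The division of the MAGEA2 pair shifts between libraries, from 28.4% to 95.5% for MAGEA2, while that of MAGEA3 and MAGEA6 stays near equal.

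CSAG3 and CSAG2, relatives of CSAG1, were not called. Their coding sequences were 99.7% identical. Of the stretches of CSAG2 94.5%, and of those of CSAG3 90.3%, were also found in other genes, so their separate levels are uncertain. Summed, the pair was at 35.61 and 34.68 TPM in WT and at 31.09 and 31.24 TPM in KO. The log2 difference of the sum was -0.30 (95% interval -0.55 to -0.05, adjusted p 0.142 by limma). CSAG3 was at 33.05 and 33.39 TPM in WT and at 27.78 and 27.32 TPM in KO, a log2 difference of -0.39 (95% interval -0.62 to -0.17), which missed the threshold at an adjusted p of 0.067 by limma. CSAG2 was at 2.56 and 1.29 TPM in WT and at 3.31 and 3.92 TPM in KO. Its log2 difference was 0.69, and it ranged from 0.21 to 1.19 when 1 library was left out. The pseudogene CSAG4, which is not among the gene types tested and shares 5.1% of the stretches of CSAG1, was at 0.23 and 0.04 TPM in WT and at 2.02 and 1.56 TPM in KO. Thus 1 of the head-to-head pairs, CSAG1 with MAGEA12, stood low in WT on both strands. The sum of CSAG2 and CSAG3 was at 31.09 TPM or more and the MAGEA2 pair at 60.3 TPM or more in both groups. CSAG2 alone was also low in WT, where it was given 7.19% and 3.72% of that sum.

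The second comparison asks whether adding SETD2 back to KO cells altered these genes, in libraries other than those of the comparison that chose them. With SETD2 FL, none of the 6 was called by limma with the same limits, and 3 of 6 had an unadjusted p under 0.05. Over all 15933 genes, 0.0753% were called higher and 0.00628% lower, and 15.9% had an unadjusted p under 0.05. MAGEA12 was at 31.65 and 31.73 TPM in KO and at 35.74 and 37.27 TPM with SETD2 FL, a log2 difference of 0.18 (95% interval 0.04 to 0.32, adjusted p 0.228). CSAG1 was at 50.75 and 45.80 TPM in KO and at 45.39 and 48.05 TPM with SETD2 FL, a difference of -0.07 (-0.29 to 0.16, adjusted p 0.770). PAGE5 was at 18.15 and 18.35 TPM in KO and at 18.68 and 15.21 TPM with SETD2 FL, a difference of -0.13 (-0.42 to 0.16, adjusted p 0.642). The groups overlapped for CSAG1 and PAGE5, and MAGEA12 was slightly higher in both rescued libraries. All 3 intervals lie within 2-fold. None of the 3 genes was under 15.21 TPM in these libraries, whereas none was over 3.62 TPM in WT cells of the first table, which was normalised separately.

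The members with the small difference between KO and WT gave similar values with SETD2 FL. MAGEA3 was at 49.57 and 51.23 TPM in KO and at 56.40 and 61.27 TPM with SETD2 FL, a log2 difference of 0.20 (95% interval 0.07 to 0.33, adjusted p 0.186 by limma). MAGEA6 was at 47.78 and 46.13 TPM in KO and at 52.80 and 56.71 TPM with SETD2 FL, a difference of 0.20 (0.07 to 0.32, adjusted p 0.179). MAGEA2 was at 22.86 and 25.87 TPM in KO and at 29.93 and 27.49 TPM with SETD2 FL, a difference of 0.21 (-0.20 to 0.63, adjusted p 0.593). None of the 3 differences passed. The sum of MAGEA2 and MAGEA2B, at 30.72 and 32.82 TPM in KO and at 40.53 and 44.27 TPM with SETD2 FL, gave a larger difference of 0.39 (0.23 to 0.56, adjusted p 0.0982 by limma). The median over the 6 members was 0.19, against 0.01 over all genes.

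SETD2 C gave many calls, with none among the members. Of all genes 597 or 3.75% were called higher and 50 or 0.314% lower against KO, and with quantile normalisation 342 and 130. None of the 6 members was called by limma, and 1 had an unadjusted p under 0.05, against 47.1% of all genes. That 1 was PAGE5, at 15.94 and 13.32 TPM with SETD2 C, below both KO libraries, with a log2 difference of -0.46 (95% interval -0.75 to -0.17, adjusted p 0.0247), under 2-fold. Leaving out 1 library at a time gave adjusted p-values of 0.012 to 0.141 for it. MAGEA12 was at 34.99 and 32.93 TPM with SETD2 C, a difference of -0.05 (-0.19 to 0.09). CSAG1 was at 63.40 and 52.05 TPM, a difference of 0.10 (-0.12 to 0.32). MAGEA12 and CSAG1 were above KO in unscaled TPM, and the sign for MAGEA12 turned to 0.10 without scaling, a setting that moved the median of all genes to 0.18.

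None of the remaining members was called with SETD2 C. MAGEA3 was at 53.84 and 56.04 TPM, a log2 difference from KO of -0.02 (95% interval -0.15 to 0.11). MAGEA6 was at 52.83 and 54.68 TPM, a difference of 0.05 (-0.08 to 0.17). MAGEA2 was at 23.80 and 37.31 TPM, the widest spread of any member in any group, with a difference of 0.14 (-0.27 to 0.56). This spread came with the shift between copies, since MAGEA2B was at 18.93 and 1.75 TPM in the same 2 libraries. The log2 difference of MAGEA2B from KO ranged from -1.93 to 1.16 when 1 library was left out. The sum of MAGEA2 and MAGEA2B differed from KO by 0.21 (0.05 to 0.38) on the log2 scale. CSAG3, at 40.56 and 35.35 TPM in KO and at 59.58 and 50.34 TPM with SETD2 C, had a difference of 0.38 (0.16 to 0.60, adjusted p 0.0185 by limma), under 2-fold.

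Both rescues share the 2 KO libraries, so they were also set against each other. None of the 6 members was called by limma between SETD2 C and SETD2 FL, while 4 of 6 had an unadjusted p under 0.05, against 48.8% of all genes. Of all genes 3.36% were called higher with SETD2 C and 0.421% lower. MAGEA12 was lower with SETD2 C by a log2 difference of -0.23 (95% interval -0.37 to -0.09, adjusted p 0.0193) and MAGEA3 by -0.22 (-0.36 to -0.09, adjusted p 0.0171), both far under 2-fold. PAGE5 gave -0.33 (-0.62 to -0.04, adjusted p 0.0733), MAGEA6 -0.15 (-0.28 to -0.03, adjusted p 0.0574), CSAG1 0.17 (-0.05 to 0.39, adjusted p 0.196) and MAGEA2 -0.07 (-0.49 to 0.35, adjusted p 0.778). The sum of MAGEA2 and MAGEA2B gave -0.18 (-0.34 to -0.01, adjusted p 0.0827 by limma). The members thus differed by small amounts, and only CSAG1 had a positive difference.

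**Figure D3:**
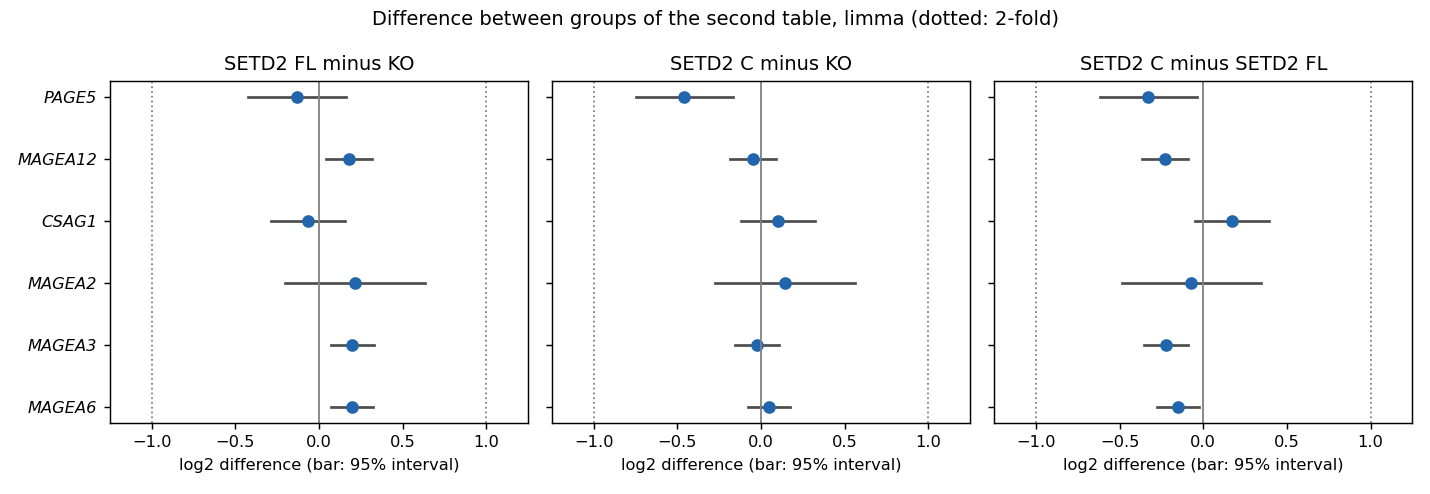
Log2 difference (point) with its 95% interval (bar) for the 6 genes in the 3 comparisons of the second table, by limma on scaled TPM with 0.5 added, with dotted lines at 2-fold. All 18 intervals lie inside the dotted lines, the widest being those of MAGEA2.

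TPM allows the 6 genes to be ordered within a table, but the place of MAGEA2 rests on how its reads were divided with MAGEA2B. In WT cells the order was MAGEA6 and MAGEA3, whose values overlapped, then MAGEA2, CSAG1, MAGEA12 and PAGE5. In KO cells of the first table it was MAGEA6, CSAG1, MAGEA3, MAGEA12, MAGEA2 and PAGE5, with no overlap between neighbours. Summed with MAGEA2B, MAGEA2 stood above MAGEA6 in both groups of that table. The sum was 60.31 and 81.12 TPM in WT and 78.27 and 83.03 TPM in KO. In KO cells of the second table MAGEA3 (mean 50.4 TPM), CSAG1 (48.3 TPM) and MAGEA6 (47.0 TPM) could not be separated beyond their spread. MAGEA12 (31.7 TPM), MAGEA2 (24.4 TPM) and PAGE5 (18.3 TPM) followed without overlap. The sum of MAGEA2 and MAGEA2B, at 30.72 and 32.82 TPM there, overlapped with MAGEA12. PAGE5 was the lowest of the 6 in every library, and CSAG1 stood behind MAGEA6, MAGEA3 and MAGEA2 in WT but among the first 3 in each other group.

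Outside the 6 genes, cancer-testis genes that passed the filter on low levels were few. The lists of such genes leave out members that were picked for being high, so their counts are those of what remained. Of 13 other type I MAGE genes only MAGEB2 was tested between KO and WT, and it was called higher. MAGEB2, which like MAGE-A has a MAGE homology domain, was at 0.72 and 0.97 TPM in WT and at 4.46 and 4.17 TPM in KO, a log2 difference of 1.75 (95% interval 1.43 to 2.07, adjusted p 0.00176 by limma). Of 6 other X-linked cancer-testis genes tested, 4 were called higher and none lower. Of these, SAGE1, SPANXD and CTAG2 passed the filter through the KO libraries alone, so that they had to be higher there, and the count of 4 carries no weight as a result. CT45A10, the 1 that also passed in WT, was at 1.04 and 1.37 TPM in WT and at 6.14 and 4.85 TPM in KO (difference 1.71, adjusted p 0.00276 by limma). Its call ended with no filter on low levels, at an adjusted p of 0.0563. SAGE1 was at 0.39 and 0.38 TPM in WT and at 1.96 and 1.94 TPM in KO. CTAG2 and SPANXD were at or near 0 in WT and below 1 TPM in KO. CT45A10, SPANXD and CTAG2 belong to families of close copies, so their own levels are uncertain.

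Between KO and WT no autosomal gene of the germ line was called, beside 0.339% of all genes called higher and 1.02% lower. Of 12 tested by limma, 2 had an unadjusted p under 0.05, a limit that 24.9% of all genes passed in this comparison. Of the rest of the MAGE-A family, MAGEA2B and MAGEA1 were tested and neither was called. MAGEA1 was at 1.10 and 1.34 TPM in WT and at 0.44 TPM in both KO libraries, a log2 difference of -0.94. It passed the filter through the WT libraries alone and so had to be lower in KO, and no test of it is given. MAGEA11 was at 0.09 and 0.03 TPM in WT and at 0.27 and 0.34 TPM in KO, below the filter. No other PAGE gene passed the filter in the first table.

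In the second table, calls among the other cancer-testis and germ line genes came with SETD2 C, on the X chromosome and on an autosome. With SETD2 FL no gene was called by limma in any of the 6 lists of cancer-testis and germ line genes. The unadjusted p was under 0.05 for 1 of 3 PAGE genes (PAGE4), 1 of 2 other type I MAGE genes and 2 of 13 autosomal genes. Over all genes 15.9% had such a p and 0.0753% were called higher. With SETD2 C, MAGEA11 was at 2.96 and 2.39 TPM in KO, at 2.36 and 2.49 TPM with SETD2 FL and at 7.88 and 7.74 TPM with SETD2 C, a log2 difference from KO of 1.26 (95% interval 0.99 to 1.53, adjusted p 0.000366 by limma). PAGE4, a relative of PAGE5, was at 0.29 and 0.23 TPM in KO and at 0.78 and 1.15 TPM with SETD2 FL. It was at 2.25 and 1.79 TPM with SETD2 C and was called higher than in KO. That call carries no weight, since PAGE4 passed the filter through the rescued libraries alone and so had to be higher there. PAGE2B was at 0.36 and 0.73 TPM in KO and at 1.18 and 1.08 TPM with SETD2 C and was not called. TEX14, an autosomal gene for a protein of the bridges between germ cells, was at 0.52 and 0.76 TPM in KO, at 0.91 and 1.24 TPM with SETD2 FL and at 2.37 and 3.21 TPM with SETD2 C, a difference of 1.42 (0.96 to 1.87, adjusted p 0.00163), the 1 call among 13 autosomal genes tested. Of 11 X-linked genes tested SPANXC, SPANXD and SPANXB1 were called higher, all below 4 TPM in every library. SPANXC and SPANXB1 passed the filter through the SETD2 C libraries alone and so had to be higher there. These calls stand beside 3.75% of all genes called higher. MAGEB2 and SAGE1, which were higher in KO than in WT, were at 5.00 and 5.72 TPM and at 3.45 and 3.32 TPM with SETD2 C, and CT45A10 at 6.83 and 7.16 TPM, so that none of the 3 was below its level in KO.

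**Figure D4:**
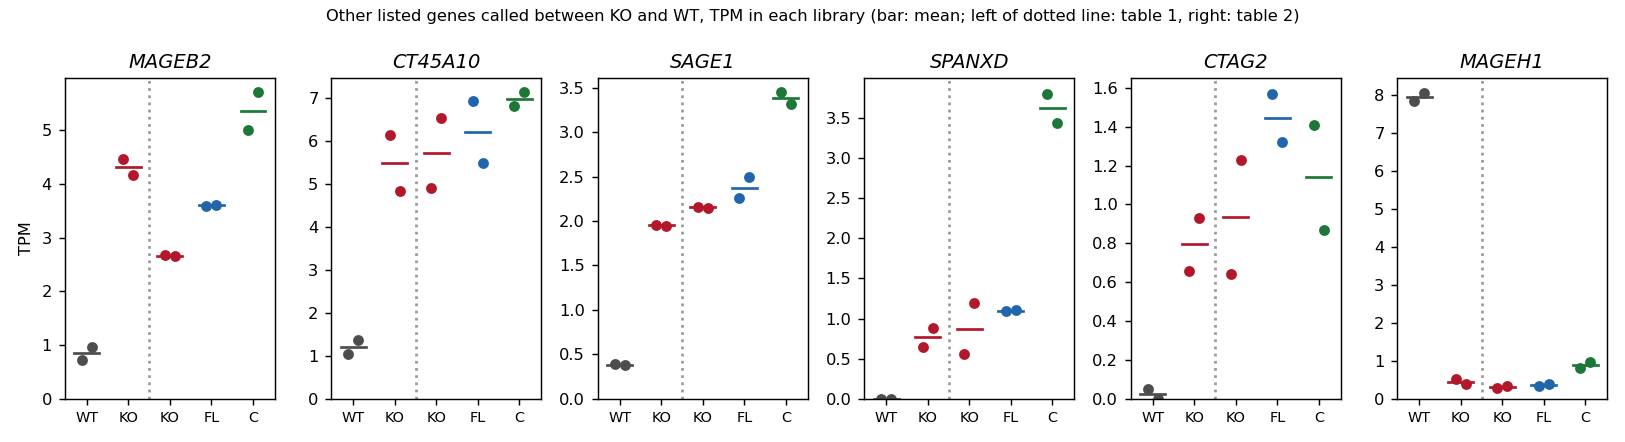
TPM in each library (points, 2 a group) and group mean (bar) of the 6 other listed genes called between KO and WT, with the first table left of the dotted line and the second right of it, each panel on its own axis from 0. MAGEB2, CT45A10, SAGE1, SPANXD and CTAG2 are lowest in WT, and MAGEH1 is the reverse, at 7.85 and 8.05 TPM in WT and under 1 TPM in all other libraries.

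Genes around the members gave 1 call between KO and WT, of a gene lower in KO. Of 18 genes tested within 500 kb of a member, members left out but copies kept in, none passed as higher between KO and WT by limma and 1 was called lower, while 6 had an unadjusted p under 0.05. Over all genes 0.339% were called higher, 1.02% were called lower and 24.9% had such a p. A count of 0 higher among 18 genes therefore carries no weight. The gene called lower was MAGEH1, a type II MAGE gene that, unlike the type I genes, is active in many normal tissues. MAGEH1 starts 231781 bp from PAGE5 on the same strand. It was at 7.85 and 8.05 TPM in WT and at 0.53 and 0.38 TPM in KO, a log2 difference of -3.24. It was over the filter in both WT libraries but in only 1 KO library. MAGEH1 thus needed a WT library to pass, so its call carries no weight and no test of it is given. In the second table MAGEH1 was at 0.29 and 0.34 TPM in KO, at 0.35 and 0.40 TPM with SETD2 FL and at 0.81 and 0.97 TPM with SETD2 C. There it passed the filter through the SETD2 C libraries alone and so had to be higher in them. No test of that difference is given. All of these levels were under the 7.85 TPM of WT in the separately normalised first table. Of the 9 type II MAGE genes tested it was the only one called.

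No regulator of DNA methylation or chromatin, and no partner or target of MAGE-A proteins, was called between KO and WT. Over all genes 0.339% were called higher and 1.02% lower, so a count of 0 in lists of this size carries no weight. Of 26 such regulators tested by limma, which include factors that silence and factors that activate genes, 7 had an unadjusted p under 0.05, against 24.9% of all genes. DNMT1, the maintenance DNA methyltransferase, was at 122.66 and 162.16 TPM in WT and at 184.50 and 192.46 TPM in KO, a log2 difference of 0.29 (95% interval 0.09 to 0.49, adjusted p 0.101). DNMT3B, a de novo methyltransferase that binds trimethylated lysine 36 of histone H3, was at 19.91 and 24.27 TPM in WT and at 30.52 and 31.20 TPM in KO, a difference of 0.35 (0.17 to 0.53, adjusted p 0.0521). Of 11 partners and targets of MAGE-A proteins none was called and none had an unadjusted p under 0.05. TRIM28 differed by 0.01 (-0.18 to 0.21) and PRKAA1, a catalytic subunit of AMPK, by -0.10 (-0.32 to 0.12). With SETD2 C, 1 of 11 partners and targets was called higher than in KO, beside 3.75% of all genes. It was PCF11, an RNA 3′ end processing factor that MAGEA11 directs to ubiquitination. PCF11 was at 22.03 and 22.35 TPM in KO and at 50.47 and 56.07 TPM with SETD2 C (1.10, adjusted p 8.36e-05 by limma). A link between PCF11 and MAGEA11 was not tested.

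The genes whose pattern over the 10 libraries was most like the mean of the 6 members were sought among 54 genes higher in KO than in WT by at least 2-fold that passed the filter in both tables, members left out. By Pearson r on log2 values, with each table centred on its KO libraries, these were ALDH1L1 (0.994), SEPHS2 (0.992), NPY1R (0.991), IFI35 (0.990) and KCTD12 (0.983). The likeness rests on the 2 WT libraries against the other 8, and 18 of the 54 genes reached 0.95. Without the WT libraries r ranged from -0.23 for ALDH1L1 to 0.67 for IFI35. ALDH1L1, an enzyme of folate metabolism, was at 0.31 and 0.27 TPM in WT, at 9.65 and 8.75 TPM in KO of the first table and at 13.70 to 17.33 TPM in the second. None of the 5 is on the X chromosome.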

How the data were processed

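Expression tables from 10 RNA-seq libraries of HEK293T cells were used, 2 tables of 58884 genes. The authors aligned the reads to hg38 with Ensembl 96 gene models (STAR 2.6.1c after bcl2fastq 2.18, per the submitters' processing notes), estimated expression with RSEM 1.3.0 and deposited TPM, whose columns all have the same total, so that read depth is not known and no counting interval can be given. RSEM divides reads shared by near-identical genes by an estimate. The 2 tables were tested apart.

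Protein-coding and lncRNA genes with at least 0.5 TPM in at least 2 libraries of a table were kept (14746 and 15933). TPM was scaled by the median ratio to the geometric mean over genes with at least 1 TPM in every library (factors 0.879 to 1.07), 0.5 was added, and log2 values were fitted with limma 3.58.1 in R 4.3.3 (eBayes with trend), with Benjamini-Hochberg adjustment over all genes tested. The 3 groups of the second table were fitted together. Fold changes are on the log2(TPM + 0.5) scale, which understates those of low genes. The script was tested on simulated data. Samples were grouped by genotype label.

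The members and gene lists were chosen with earlier results of these data known. The text names all members, their near copies, up to 4 called genes a list, family genes with at least 1 TPM in 2 libraries, 4 regulators and partners, SETD2, and the 5 genes most alike in pattern. AMH, SOX9, NEFM, NES, VIM, LIN28B and PAX2 were named after their values were seen. Alternatives were another pseudocount, filter, scaling, trend or threshold, summed copies, and leaving out libraries. Gene positions are from GENCODE 44, promoters from RefSeq, and alignments from biopython 1.88 and blastn 2.17.0. ChIP-seq samples were not analysed here.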

Additional observations from a re-analysis of the deposited data

How the results depend on the processing

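Each setting below was chosen with earlier results known. With 2 libraries a group, and TPM without read counts, small differences rest on few values. The median log2 difference of the members between KO and WT was 2.25. It was 1.96 with 1 added, 4.06 with copies summed (5 features, so that CSAG1 is the middle one), and 0.39 to 2.27 when 1 library was left out. The low end came from leaving out either KO library, when PAGE5 no longer passed the filter and MAGEA6 was the middle of 5 members. With the replicate number as a block, the median stayed at 2.25, and 55 genes were called higher and 159 lower over all genes. The numbers are only shared, since deviations of same-numbered libraries correlated at 0.147 over 2 pairs. No paired analysis was possible in the second table because its groups share fewer than 2 numbers. By the adjusted p alone, with no fold threshold, 1 member passed for SETD2 C against KO and 2 for SETD2 C against SETD2 FL. In the other 60 recomputations of the members' median or count, neither the direction nor the call changed.

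Small differences changed sign under some settings, and the cause was not tested. For KO against WT, MAGEA2B gave 0.13 and PRKAA1 0.026 without scaling, and MAGEA2B 0.00034 with all gene types. For SETD2 C against KO, MAGEA12 gave 0.098 and MAGEA3 0.12 without scaling, and MAGEA3 0.022 with quantile normalisation. For SETD2 C against SETD2 FL, MAGEA2 gave 0.055 without scaling and PAGE2B -0.093 with quantile normalisation. Leaving out 1 library gave, for KO against WT, -0.20 to 0.20 for MAGEA2B and -0.033 to 0.061 for TRIM28. For SETD2 FL against KO it gave -0.30 to 0.041 for PAGE5, -0.13 to 0.00016 for CSAG1 and -0.17 to 0.013 for CSAG3. For SETD2 C against KO it gave -0.042 to 0.25 for CSAG1, -0.17 to 0.46 for MAGEA2, -0.055 to 0.0051 for MAGEA3, -1.93 to 1.16 for MAGEA2B and -0.17 to 0.80 for CSAG2. For SETD2 C against SETD2 FL it gave -0.39 to 0.24 for MAGEA2 and -2.73 to 0.37 for MAGEA2B. Without scaling the median of all genes moved to 0.11 for KO against WT, 0.18 for SETD2 C against KO and 0.16 for SETD2 C against SETD2 FL.

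Counts over all genes moved more. For KO against WT, 50 higher and 150 lower became 15 and 58 with no filter, 32 and 96 with 1 added, 194 and 467 by the adjusted p alone, and 22 to 65 and 84 to 149 when 1 library was left out. For SETD2 FL, 12 higher and 1 lower became 2 to 28 and 0 to 5 over all settings. For SETD2 C against KO, 597 and 50 became 987 and 93 with 0.1 added, 335 and 38 with 1 added, 342 and 130 with quantile normalisation, and 3359 and 2405 by the adjusted p alone, with 79 lower over all gene types and 77 lower without SETD2 C replicate 1. For SETD2 C against SETD2 FL, 536 and 67 became 853 and 104, 317 and 45, and 3411 and 2676, and 336 and 126 with quantile normalisation.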
